A study of Drosophila melanogaster with 10 samples.

Results

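Clk, cyc and cry are 3 genes of the Drosophila circadian clock. They were chosen by gene symbol in the platform annotation, which names 1 probe set for each (Clk 1631948_s_at, cyc 1640765_at and cry 1628719_at), so 3 of the 18952 probe sets on the Affymetrix array are described here. No probe set with several symbols names any of them. The flies were a control strain, yw, and RNA from whole heads was hybridised to 10 arrays. Times are zeitgeber times (ZT, in hours; by convention lights come on at ZT0). There were 3 arrays at ZT3 and 3 at ZT15, and 1 array at each of ZT7, ZT11, ZT19 and ZT23. The labels give no sex, age or light schedule, and nothing says whether replicates are separate collections of flies, so the p-values cover the spread among these arrays alone, which may be technical. A head is a mixture of cells, and in such bulk RNA fewer cells of a type and less RNA per cell cannot be told apart.

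CLK and CYC are transcription factors of the bHLH-PAS family. They bind DNA as a pair at E-box sites and activate per and tim, whose protein products return to the nucleus and inhibit the pair. A second loop runs through vri, whose product represses Clk, and Pdp1, whose product activates it. CRY is a blue-light photoreceptor that binds TIM in the light and leads to its degradation, which resets the clock at dawn. In the head these genes are active in clock neurons, and also in photoreceptors, glia and fat body.

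A level here is the natural log of a deposited value, read as a log2 value from GCRMA. On that reading a difference of 1 is a doubling, and all folds below rest on it. The arrays fell into 2 sets by clustering. The set of 4 holds replicates 1 and 2 of ZT3 with replicates 2 and 3 of ZT15, and the set of 6 holds the remaining arrays, 1 at each of the 6 times. Correlations over the 12991 tested probe sets ran from 0.97 to 0.99 within a set and from 0.72 to 0.83 between sets. Each test is therefore given both without a block for the array set and with one, a term that removes the mean difference between the sets. Testis markers (10 of 13 listed genes tested) had a mean level of 3.72 to 5.89 on the set of 4 and 10.9 to 12.1 on the set of 6, and accessory gland markers (14 of 15) 3.87 to 4.28 and 11.6 to 12.8. RNA of these male reproductive tissue markers, Acp95EF aside, was thus far higher on the set of 6, which holds every ZT7, ZT11, ZT19 and ZT23 array. Acp95EF, an accessory gland marker, was higher on the set of 4 by a fitted 1.21. Why RNA of such markers appears in RNA described as from heads was not tested. Photoreceptor markers (8 of 12 tested) had a mean level of 13.1 to 13.7 and neuron markers (7 of 8) 9.19 to 10.7 over the 10 arrays, so markers of both the eye and the brain were present. The photoreceptor list overlapped between the sets. The neuron list was lower on the set of 4 (9.19 to 9.55) than on the set of 6 (10.06 to 10.70). Glia markers were higher on the set of 4 (11.28 to 11.38 against 10.71 to 11.03), as were fat body markers (14.77 to 15.16 against 13.94 to 14.40).

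Clk RNA was high in the early day and low in the early night. Its level was 9.71, 9.07 and 9.07 on the ZT3 arrays and 6.90, 6.80 and 7.05 on the ZT15 arrays. Every ZT15 array lay below every ZT3 array by more than the spread within either time. Of the tested probe sets, 2.42% had every ZT15 array below every ZT3 array, whatever the size of the gap. The level of Clk was 8.66 at ZT7, 7.69 at ZT11, 7.98 at ZT19 and 9.53 at ZT23. ZT15 thus gave the lowest values of the day. The highest were on ZT3 replicate 1 and at ZT23, so the level recovered between ZT15 and ZT23.

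cry RNA was also high by day, but its low point came later. Its level was 11.21, 11.46 and 10.96 on the ZT3 arrays and 9.45, 9.90 and 9.80 on the ZT15 arrays, again without overlap. It was 10.92 at ZT7, 10.30 at ZT11, 9.03 at ZT19 and 10.50 at ZT23. The lowest value of the day was that of ZT19, below each ZT15 array, while Clk at ZT19 had already risen above each of its ZT15 arrays.

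cyc RNA stayed within a narrow range. Its level was 9.07, 9.25 and 8.79 on the ZT3 arrays and 8.95, 9.08 and 9.40 on the ZT15 arrays, and the arrays of both times overlapped. It was 8.79 at ZT7, 8.94 at ZT11, 8.81 at ZT19 and 9.07 at ZT23. The 4 single arrays lay within the range of the ZT3 and ZT15 arrays.

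**Figure D1:**
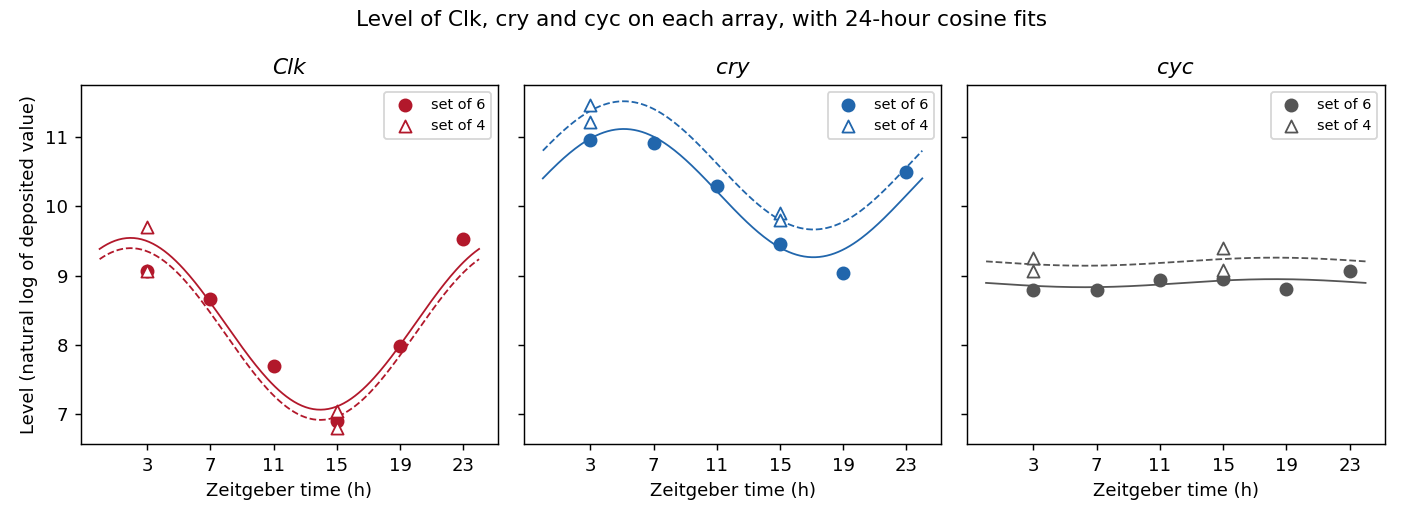
Level (natural log of the deposited value) of Clk, cry and cyc against zeitgeber time in hours, 1 point per array; filled circles are the set of 6, open triangles the set of 4, and the lines are the 24-hour cosine fitted with the array set as a block (solid, set of 6; dashed, set of 4). Clk runs from 6.80 to 9.71, cry from 9.03 to 11.46 and cyc from 8.79 to 9.40.

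The comparison of ZT15 with ZT3 asks how each transcript differs between early night and early day. Clk had a mean of 9.28 ± 0.367 (SD, n = 3) at ZT3 and 6.92 ± 0.124 (SD, n = 3) at ZT15. The difference, ZT15 minus ZT3, was -2.37 with a 95% interval of -2.89 to -1.85 under the block, a level 5.16-fold lower at ZT15. It passed the threshold of 0.05 with the array set as a block (limma, adjusted p 0.046) and not without it (0.17). Of the 12991 tested probe sets, 8 had a lower difference. With the block 0.154% of the probe sets passed, and 0.0539% passed as lower at ZT15; without it 0.0308% passed and 0 were lower (118 lower at an unadjusted p under 0.05, limma). cry had a mean of 11.21 ± 0.250 (SD, n = 3) at ZT3 and 9.72 ± 0.234 (SD, n = 3) at ZT15. Its difference was -1.49 (95% interval -1.77 to -1.21 under the block), or 2.81-fold lower at ZT15, with adjusted p 0.031 under the block and 0.63 without it (limma). cyc had a mean of 9.04 ± 0.235 (SD, n = 3) and 9.15 ± 0.232 (SD, n = 3). Its difference was 0.11, and the 95% interval under the block ran from -0.22 to 0.44, which leaves out changes of the size seen in Clk and cry (adjusted p 0.85 with and 1.0 without the block, limma).

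The difference was also taken within each array set. Within the set of 4 the difference was -2.47 for Clk, -1.49 for cry and 0.081 for cyc. Within the set of 6, with 1 array per time, it was -2.17, -1.51 and 0.16. The smallest fall of Clk was thus larger than the largest fall of cry. Mean levels of the marker lists were also compared within each set, since the lists differed between the sets. Within the set of 4 the fat body list (5 of 8 markers tested) ran from 14.8 to 14.9 at ZT3 and from 15.1 to 15.2 at ZT15, without overlap, and in the set of 6 it was 13.9 and 14.2. All 5 fat body markers had a higher mean at ZT15, and none passed that comparison with the block, which 0.154% of all tested probe sets passed. Lsp2, which encodes a larval serum protein made by the fat body, passed the rhythm test with the block (amplitude 1.20, peak ZT19.6, limma, adjusted p 0.027) and not without it (1.0); its ZT15 minus ZT3 difference was 1.03 (adjusted p 0.15 with the block). The neuron list differed by -0.28 in the set of 4, without overlap, and by 0.15 in the set of 6. The glia list (6 of 7 tested) differed by -0.042 and 0.21, the photoreceptor list by -0.085 and -0.016, the testis list by 1.17 and -0.44, and the accessory gland list by 0.21 and 0.55. In the set of 4, with 2 arrays per time, only the glia list overlapped between ZT3 and ZT15. A lack of overlap there thus sets no list apart. The part of these shifts in the differences of Clk and cry was not tested. Leaving out any 1 array ended the calls of Clk and cry under the block: the adjusted p rose to between 0.11 and 0.32 for Clk and between 0.14 and 0.28 for cry, while the differences stayed between -2.52 and -2.16 and between -1.56 and -1.42. Without a filter on low values the call of Clk also ended (0.079, limma) and that of cry did not (0.048).

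**Figure D2:**
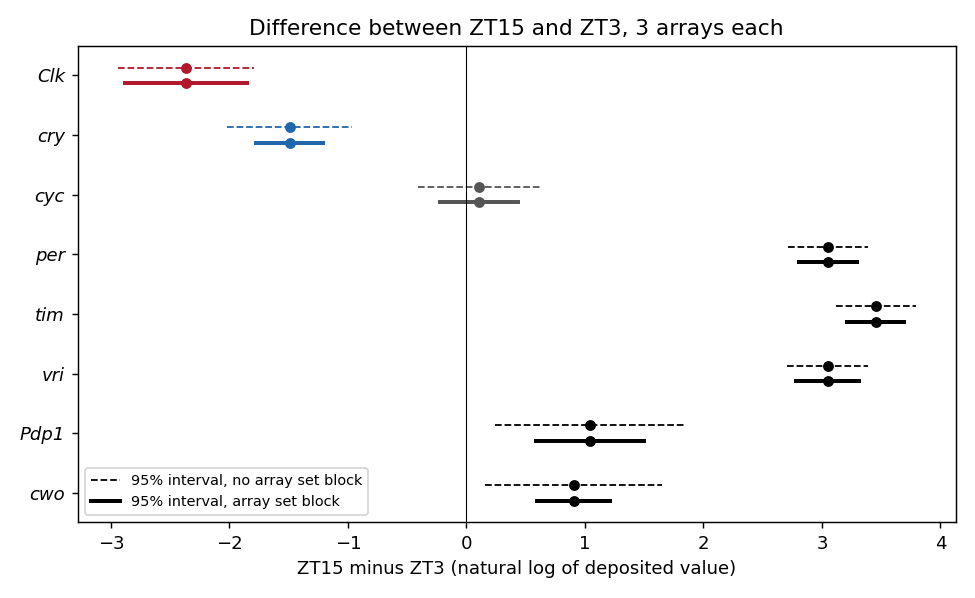
Difference in level (ZT15 minus ZT3, natural log of the deposited value, 3 arrays per time) for Clk, cry, cyc and 5 clock genes that CLK and CYC activate; points are the differences, dashed lines 95% intervals without the array set block and solid lines with it. Clk (-2.37) and cry (-1.49) lie below 0, cyc (0.11) spans 0, and the 5 others lie above 0.

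Whether the members differ from each other was tested on differences taken within each array, which removes what the array does alike to both genes. The within-array difference between Clk and cyc was 0.25 ± 0.410 (SD, n = 3) at ZT3 and -2.23 ± 0.159 (SD, n = 3) at ZT15, so the change of Clk was lower than that of cyc by -2.48. The same figure was -1.60 for cry against cyc and -0.88 for Clk against cry. In all 3 pairs the ZT3 and ZT15 arrays did not overlap. With 3 arrays against 3 the exact two-sided permutation test cannot go below 0.10, and each pair gave this smallest value (0.10 after Benjamini-Hochberg adjustment over the 3 pairs).

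The whole day was described with a 24-hour cosine over all 10 arrays. The amplitude is the height of the fitted peak above the fitted mean. Clk had an amplitude of 1.24 ± 0.118 (SE, with the block) and a fitted peak at ZT1.96 ± 0.52 h (SE). It passed without the block, where 0.0385% of the probe sets passed (limma, adjusted p 0.050), and with it, where 0.508% did (0.011). cry had an amplitude of 0.93 ± 0.093 (SE) and a fitted peak at ZT5.12 ± 0.46 h (SE). It passed with the block (limma, adjusted p 0.011) and not without it (0.23). cyc had an amplitude of 0.058 ± 0.079 (SE), smaller than its own error, so its fitted peak has no meaning (adjusted p 1.0 in both fits, limma). The amplitude of Clk was above that of 99.7% of the tested probe sets, that of cry above 99.2% and that of cyc above 17.1%, and the median over all tested was 0.126. The call of Clk without the block ended when any 1 of the 10 arrays was left out (adjusted p 0.079 to 0.31) and after quantile normalization (0.051). With the block it ended without ZT15 replicate 1, 2 or 3 (0.060, 0.070 and 0.063), and that of cry without these (0.060, 0.062 and 0.066) and without ZT3 replicate 2 or 3 (0.068 and 0.054).

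**Figure D3:**
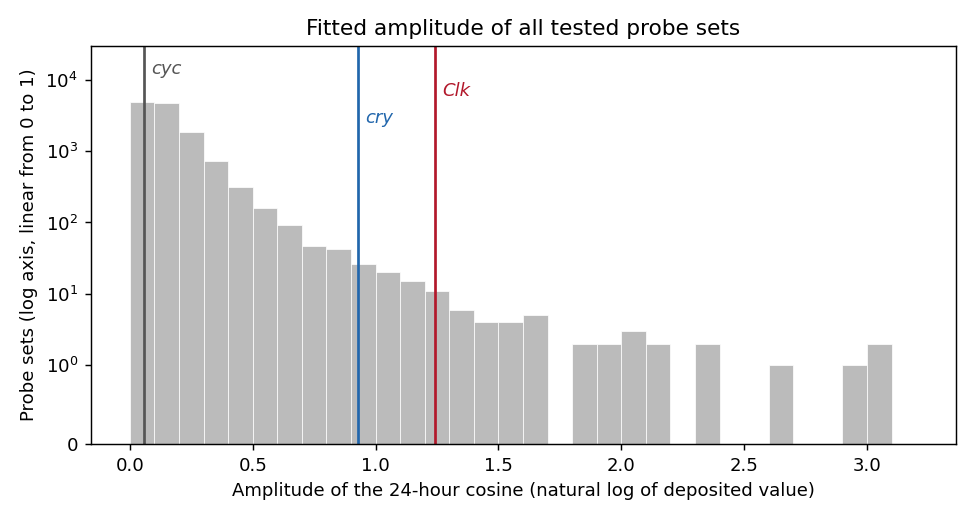
Number of probe sets (log axis, linear from 0 to 1) by amplitude of the fitted 24-hour cosine, over 12991 tested probe sets; vertical lines mark cyc at 0.058, cry at 0.93 and Clk at 1.24. Most probe sets lie near the median of 0.126, and both Clk and cry lie in the sparse upper tail.

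The fitted peak of cry followed that of Clk by 3.16 h. With each array left out in turn, the peak of Clk lay between ZT1.58 and ZT2.49, that of cry between ZT4.49 and ZT5.77, and the lag between 2.57 and 3.38 h. A cosine fitted to the within-array difference between Clk and cry took 66.7% of its variance, and the exact permutation test over all 100800 assignments of arrays to times gave p = 0.029 (also 0.029 after adjustment over 3 pairs). With the array set added as a term, the cosine took 78.5% of the remaining variance. The exact permutation test of that share, with times exchanged only within an array set, gave 0.015. This test covers the size and the time of the rhythm together and does not separate them. Its call ended without ZT15 replicate 1 (adjusted exact p 0.057), without ZT15 replicate 3 (0.056) and without ZT23 (0.10). For Clk against cyc and cry against cyc the cosine took 90.6% and 96.8% of the variance, each with an adjusted exact permutation p of 0.0010. With the array set term and exchange within the sets it took 94.6% and 97.1%, each with an adjusted exact permutation p of 0.0056. These 2 calls held without any 1 array.

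The set of 6 holds 1 array at each time and so gives a day without a change of set. In it Clk rose from 6.90 at ZT15 to 9.53 at ZT23, a 6.20-fold range, and cry rose from 9.03 at ZT19 to 10.96 at ZT3, a 3.80-fold range. cyc ranged over 1.22-fold. The order of Clk, from the lowest, was ZT15, ZT11, ZT19, ZT7, ZT3 and ZT23. The SD of a difference between 2 arrays was 0.417. ZT11 and ZT19 (0.29 apart) and ZT7 and ZT3 (0.41 apart) differed by less than 1 such SD, and ZT3 and ZT23 (0.46 apart) by little more. No gap between neighbours in this order exceeded 2 such SDs, and the largest was 0.79 between ZT15 and ZT11. The order of cry was ZT19, ZT15, ZT11, ZT23, ZT7 and ZT3. ZT7 and ZT3 differed by 0.043, within the SD of 0.153 for such a difference, and ZT11 and ZT23 by 0.19, under 2 such SDs. The step from ZT19 up to ZT15 was 0.42. For cyc every gap between neighbours in the order was at most 0.13, below the SD of 0.215. Its largest step in time, -0.29 from ZT23 to ZT3, exceeded 1 such SD in size but not 2. From ZT15 to ZT19 Clk went up by 1.08 while cry went down by a change of -0.42. Both rose from ZT19 to ZT23, by 1.55 and 1.46. From ZT23 to ZT3 Clk changed by -0.46 and cry by 0.46. These steps rest on single arrays, with the spread taken from ZT3 and ZT15.

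**Figure D4:**
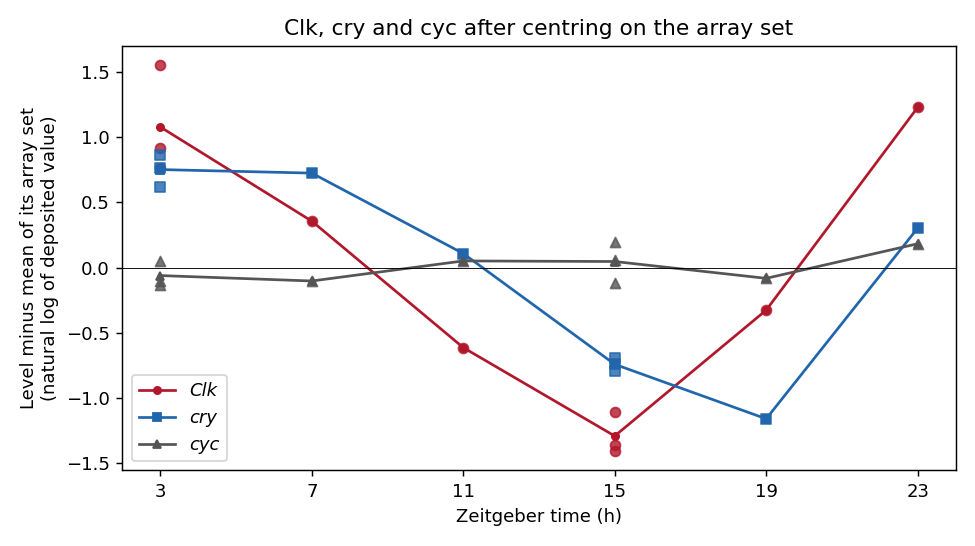
Level minus the mean of its array set (natural log of the deposited value) against zeitgeber time in hours for Clk (circles), cry (squares) and cyc (triangles); points are arrays and lines join the means of each time, of 3 arrays at ZT3 and ZT15 and of 1 array elsewhere. Clk is lowest at ZT15 and already higher at ZT19, where cry is lowest, and cyc stays near 0.

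The level of each gene also shifted between the sets. Over 10 arrays the fitted shift of the set of 4 relative to the set of 6 was 0.40 for cry, 0.31 for cyc and -0.15 for Clk, and the median absolute difference of all tested probe sets was 0.54. Over the ZT3 and ZT15 arrays alone it was 0.39, 0.33 and 0.17, so the sign for Clk depended on the arrays used. Centring each set on its mean lowered the SD of cyc over the 10 arrays from 0.204 to 0.133. The SD went from 1.11 to 1.17 for Clk and from 0.80 to 0.82 for cry. The centred SD has a smaller divisor, to allow for the set means removed. Centring cannot raise the sum of squares, so these small rises come from the divisor.

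The 5 listed clock genes that CLK and CYC activate were all tested, and all had a higher mean at ZT15, where Clk was low. Their median ZT15 minus ZT3 was 3.05, beside 0.0061 over all tested probe sets. Of the 5, 3 passed, where 0.154% of all tested probe sets passed with the block and 0.0308% without it. per, tim and vri passed with and without the block, all higher at ZT15, and Pdp1 (1.04) and cwo (0.90), a repressor that acts on the same sites, did not pass (adjusted p 0.18 and 0.13 with the block, limma). In the rhythm test 4 passed with the block and 2 without it, where 0.508% and 0.0385% of all tested probe sets passed. Pdp1 passed in neither fit (0.12 with the block, limma). The call of cwo rests on its probe set with the higher mean (limma, adjusted p 0.021 with the block). Its other probe set peaked at ZT15.1 and did not pass (limma, adjusted p 0.085 with the block). Fitted peaks were ZT13.4 for vri, ZT14.6 for per, ZT14.9 for tim and ZT13.3 for cwo, against ZT1.96 for Clk and ZT5.12 for cry. On the ZT15 arrays, where Clk was lowest, the level of vri had a mean of 12.38, against 9.33 on the ZT3 arrays.

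Genes tied to the CLK and CRY proteins were listed too, with cwo and tim listed again. Of 12 listed genes that act on CLK or its activity 7 were tested, with a median ZT15 minus ZT3 of 0.063. Usp8, a deubiquitinase of CLK, was higher at ZT15 by 1.87 and passed with the block (limma, adjusted p 0.031) and not without it (0.88). No other gene of the 7 passed that comparison, which 0.154% of all tested probe sets passed with the block. dco (double-time), the casein kinase that phosphorylates PER and CLK, differed by 0.076 and had an amplitude of 0.012. In the rhythm test 2 of the 7 passed with the block, Usp8 (amplitude 1.28, peak ZT12.2) and cwo, and 0 without it (2 at an unadjusted p under 0.05, limma). Over all tested probe sets 0.508% passed the rhythm test with the block and 0.0385% without it (209 of 12991 at an unadjusted p under 0.05, limma). Of the 8 listed CRY partners and light-response genes, all tested, tim was the only one to pass in either comparison. jet, which encodes an F-box protein for light-driven TIM degradation, differed by -0.059, and qsm, a gene of the light response, by -0.32 (adjusted p 0.40 under the block, limma). The list had a median of -0.014 and, tim aside, amplitudes from 0.038 to 0.29.

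Among relatives of CLK and CYC in the bHLH-PAS family 6 of 9 were tested, 1 fell below the filter on low values and 2 were not analysed here. None of the 6 passed either test, with or without the block (limma; at an unadjusted p under 0.05, 2 for ZT15 against ZT3 and 1 for the rhythm with the block, and 0 without it), and their ZT15 minus ZT3 differences ran from -0.45 (gce, a juvenile hormone receptor) to 0.16 (Met, another such receptor). Over all tested probe sets 0.154% passed for ZT15 against ZT3 and 0.508% for the rhythm with the block, and 0.0308% and 0.0385% without it. At an unadjusted p under 0.05 with the block (limma), 1247 and 1028 of the 12991 did. With shares this small, passing none does not set these 6 genes apart. tgo, the common partner of many bHLH-PAS proteins, differed by 0.14. The 2 photolyase genes related to cry were not analysed here.

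The genes most like each member were found by Pearson correlation over the 10 arrays, after centring each array set on its mean. They were picked as the highest of all named probe sets, so high values follow in part from the search, and the arrays and their sets are shared by all genes. For Clk they were hts (r = 0.97), which encodes an adducin of the membrane skeleton, Gasp (0.97), a chitin-binding protein gene, the glycosyltransferase gene Ugt35B1 (0.97), CG31321 (0.96) and Nt5a (0.96). Their fitted peaks lay between ZT1.37 and ZT2.96, with amplitudes from 0.45 to 1.03, below the 1.24 of Clk. Gasp and CG31321 did not pass the rhythm test with the block (limma, adjusted p 0.094 and 0.13), and without centring the correlations ran from 0.43 (CG31321) to 0.96 (Nt5a). For cry they were Atf-2 (0.98), a bZIP transcription factor gene, the tetraspanin gene Tsp42Ek (0.97), CG6834 (0.97), CG9377 (0.97) and the cytochrome P450 gene Cyp305a1 (0.95). These peaked between ZT3.96 and ZT5.37, and their amplitudes ran from 0.32 to 1.02. Atf-2 did not pass the rhythm test with the block (limma, adjusted p 0.17), and without centring the correlations ran from 0.35 (Atf-2) to 0.92 (Tsp42Ek). For cyc the 5 were B4 (0.95), CG31221 (0.94), the receptor phosphatase gene Ptp4E (0.93), the receptor kinase gene Tie (0.92) and CG12605 (0.92). None of these 5 passed the rhythm test with the block, which 0.508% of all tested probe sets passed. Without centring the correlations ran from -0.68 (CG12605) to 0.96 (Tie).

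Rhythmic probe sets were counted near each fitted peak. Of the 66 probe sets rhythmic with the block, 15 others peaked within 1.5 h of Clk and 7 others within 1.5 h of cry. The share of all tested probe sets peaking in these windows was not counted, so no excess is read from these counts. In amplitude 11 of the 66 exceeded Clk and 27 exceeded cry.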

How the data were processed

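Per the labels' protocols, Trizol was used for RNA from fly heads and biotin labelling followed Affymetrix. The authors deposited 1 processed intensity per probe set and array; the submitters' processing notes name GCRMA, with no version or settings in the sources used here. These deposited intensities reach 8527865, above the 65536 levels of a scanner, with a natural log of 15.96, so they are likely GCRMA log2 values raised to the base e. Their natural log was used; on the log2(value + 1) scale differences are 1.44 times larger. Of 18769 probe sets other than 183 controls, 13647 have 1 gene symbol, 402 several and 4720 none here. The 12991 with a mean of at least 4 were tested, all 3 members among them. ZT15 against ZT3 (6 arrays) and a 24-hour cosine (10 arrays, F test) were fitted with limma 3.58.1 (lmFit, eBayes) in R 4.3.3, Benjamini-Hochberg adjusted over all tested probe sets, threshold 0.05. Array sets came from complete-linkage clustering of correlations. The fits were tested on simulated data. The number of arrays limits the precision.

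The members, gene lists, array set block and natural log were chosen with earlier results of these data known. The text names all members, lists by count with up to 4 genes past the threshold and others as examples chosen after their values were seen, and the 5 genes most correlated with each member. A gene with several probe sets is represented by that with the highest mean. Alternatives covered scale, pseudocount, filter, normalization, variance prior, blocks and left-out arrays.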

Additional observations from a re-analysis of the deposited data

How the results depend on the processing

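Alternatives to the scale (log2(value + 1), pseudocount of 16), filter, normalization, variance prior and arrays kept the direction of Clk and cry throughout; that of cyc turned only without ZT3 replicate 3 (-0.017) or ZT15 replicate 3 (-0.020), out of a range of -0.020 to 0.22 without 1 replicate. For ZT15 minus ZT3 without the block the 4 probe sets became 0 with the replicate number as a block, 20 with the array set block, which brought Clk (-2.37) and cry (-1.49) past the threshold, and 0 to 0 without 1 replicate. Deviations of same-numbered arrays correlated at -0.89, 0.80 and -0.90 for replicates 1, 2 and 3. Only replicate 2 had both its arrays in the same array set, so these signs cannot show whether the replicate numbers pair the arrays. None of Clk, cyc and cry passed either with the replicate block or without it, so no call of theirs could be lost (adjusted p of Clk 0.17 without it and 1.0 with it, limma). The replicate block was not run with the array set block or for the rhythm. With the array set block the 20 became 102 with trend and robust variance, 0 to 5 without 1 replicate (Clk -2.52 to -2.16, cry -1.56 to -1.42, none past the threshold) and, in an alternative added after seeing the data, 0 in the set of 4 only (Clk -2.47, cry -1.49). Leaving out ZT3 replicate 3 or ZT15 replicate 1 gave the same values as the set of 4 only. The block then takes up the 1 array left of the set of 6, so these are the same fit and not separate alternatives. Clk (-2.37) also did not pass with no filter. For the rhythm without the block the 5 became 3 after quantile normalization (Clk 1.21, not past), 9 with trend and robust variance, 66 with the array set block (cry 0.93, now past), 0 in the set of 6 only (Clk 1.19, not past) and 2 to 4 without 1 array (Clk 1.16 to 1.33). With the block the 66 became 0 with 1 value per time (Clk 1.26, cry 0.97, not past, on 6 values) and 13 to 72 without 1 array (Clk 1.16 to 1.33, cry 0.80 to 1.00). The amplitude of the Clk minus cry difference was 0.79 to 1.02 without 1 array, also added after seeing the data. Of the 5 genes most like each member, Pearson correlation without centring shared 1 for Clk, 1 for cyc and 1 for cry, and Spearman correlation shared 3, 0 and 3. Fewer arrays leave fewer degrees of freedom; other causes were not tested. The 4 single arrays have no replicate error.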
